A study of Arabidopsis thaliana with 6 samples.

Results

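Among 12804 probe sets bright enough to use on 6 Affymetrix ATH1 arrays of Arabidopsis thaliana leaves, 102 were lower in the pad4 est1b double mutant than in pad4 in each of 3 same-numbered pairs of arrays. They were chosen by the signals themselves: a mean of at least 20 units over the 6 arrays, and a difference of -0.5 or less in pairs 1, 2 and 3, double mutant minus pad4, on the scale log2(signal + 10). In all, 108 probe sets met these limits, or 0.843% of those kept, and 6 of them, among them AT2G05540 and AT3G53980, were left out by name. The array holds 22810 probe sets. Of the 102, 50 name a single gene, 1 names several and 51 have no gene listed. The share with a single gene is 49.0% among the 102 and 53.8% among all probe sets kept. All 50 named genes are nuclear, and 43 of them carry only a locus identifier.

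Both groups lack PAD4 through the pad4-1 allele. PAD4 is a lipase-like protein that works with EDS1 in salicylic acid defence, so no plant here has that arm intact. The double mutant also carries the est1b-1 knockout, and each group has 3 samples. The background to the comparison is nonsense-mediated mRNA decay, which destroys transcripts with premature stop codons. Loss of this pathway stabilises its targets, so its direct targets are known to be higher, not lower, in such mutants. In Arabidopsis, mutants of the pathway are known for dwarfed growth and an active immune response, which loss of PAD4 is known to relieve in part.

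The plants were of Columbia strain and grew in soil, for 2 weeks at high humidity (95%) and a further 3 weeks at 70% and 22 °C. The photoperiod is given as 16/8 h, light first for the humid weeks and dark first in the later wording. The labels give developmental stage 5.10 weeks and developed rosette leaves for pad4 replicate 1 and for the 3 double mutant samples, but stage 3.90 weeks and leaves for pad4 replicates 2 and 3. Pair 1 is thus the only pair with the same stage label on both sides, and in pairs 2 and 3 genotype and stage label cannot be told apart. The labels name neither the plants pooled per sample nor what a shared replicate number stands for, so the spread between samples may be technical.

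Total signal ran from 3405664 to 3894818 units per array, and each array had a 2%-trimmed mean of 100.0. Leaf genes were bright: the 3 photosynthesis markers that could be read of 6 listed summed to between 20956 and 22592 units in pad4 and between 18843 and 26850 in the double mutant. The 4 root markers read of 5 listed were all under the limit of 20 units, with sums of 17.9 to 22.7 and 15.0 to 48.9. FMA, a guard cell regulator and the single guard cell marker read, had 29.2 to 101 units in pad4 against 44.4 to 62.7 in the double mutant. The mean log2 ratio of 3' to 5' signal for the actin and GAPDH controls, a sign of RNA integrity, ran from 2.24 to 3.00 in pad4 and from 2.57 to 2.87 in the double mutant. The 3' signal was thus well above the 5' signal on all 6 arrays. The groups overlapped in this ratio, and its part in the results was not tested.

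The differences were moderate. The mean difference over the 3 pairs ran from -1.66 to -0.54 with a median of -0.87, against a median of 0.03 over all 12804 probe sets. On the fold scale, with 10 units added to each signal, pad4 exceeded the double mutant by 1.46-fold to 3.17-fold, with a median of 1.83-fold. The mean difference was -1 or lower in 29 of the 102, and in 5 every pair was at -1 or lower. The median signal of the 102 was 151, 164 and 139 units in pad4 replicates 1, 2 and 3, and 72.3, 80.2 and 63.4 in the double mutant. These values describe the choice and are no test of it.

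The pairs contributed unequally. The median of the 102 was -0.76 in pair 1, -0.79 in pair 2 and -0.90 in pair 3, where the same medians over all probe sets were -0.0041, -0.0087 and 0.14. Pair 3 held the largest difference for 49 of them, pair 2 for 28 and pair 1 for 25. The range over the 3 pairs had a median of 0.42 per probe set, was under 0.2 in 26 and was over 1 in 8. With pad4 replicate 1 as the only control, so that all 4 samples have the stage label 5.10, the median was -0.71, and -0.05 over all probe sets. The choice had used these 4 samples too, so the median of -0.71 describes the choice and is no test of it.

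**Figure D1:**
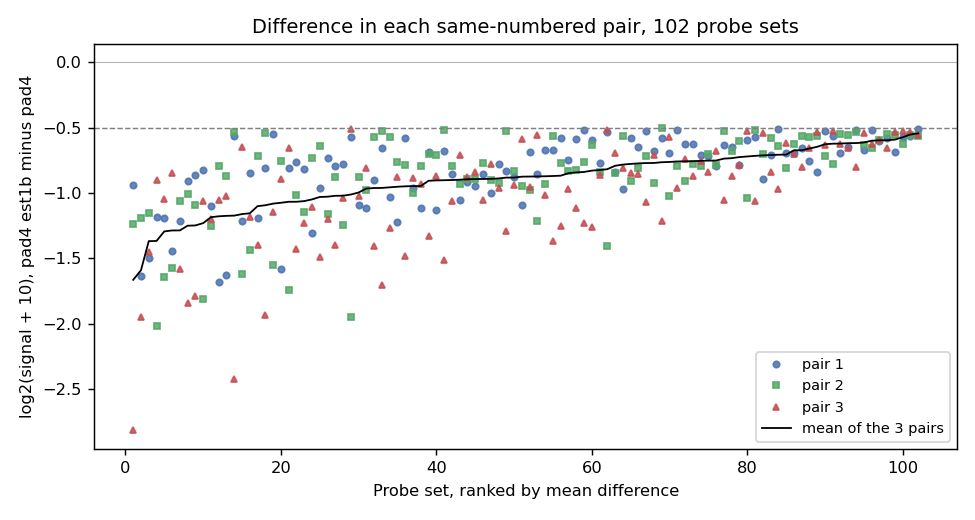
Difference on the scale log2(signal + 10), double mutant minus pad4, in each same-numbered pair for the 102 probe sets, ranked by their mean (black line). The dashed line marks the limit of -0.5 and the means run from -1.66 to -0.54, with single pairs, mostly pair 3, reaching further down.

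A comparison that does not rest on the numbering is whether the groups overlap. In 59 of the 102 all 3 double mutant arrays lay below all 3 pad4 arrays, and in 43 they did not; over all probe sets 3.4% had this order. Without both replicate 3 arrays, a view added after the data had been seen, 100 of the 102 were separated, against 18.2% of all. Limma without a replicate term called 0 of 12804 probe sets lower (0%) at an adjusted p of 0.05. At an unadjusted p of 0.05 limma gave 148 lower (1.16%), of which 69 are among the 102. Since the choice used this contrast, none of these counts of members is support for it.

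Arrays of a single genotype also differed from each other. The range over the 3 pad4 arrays had a median of 0.80 among the 102 and 0.78 among all probe sets, and in 44 of the 102 it was larger than the mean difference between genotypes. Over the double mutant arrays the medians were 0.81 and 0.65.

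The choice can also be taken apart by pair, as a description only. Of the 12804 probe sets, 5.61% were at -0.5 or less in pair 1, 14.7% in pair 2 and 11.5% in pair 3. On pairs 2 and 3 alone 217 probe sets met the limit, on pairs 1 and 3 253, and on pairs 1 and 2 305. The 108 that met it everywhere are the same in each of these counts and make up 49.8%, 42.7% and 35.4% of them, so the 3 shares restate the choice and are no separate support for it. Among the probe sets chosen on the other pairs, 90.8% were under 0 in pair 1, 85.8% in pair 2 and 69.2% in pair 3, where 50.7%, 50.8% and 39.7% of all were. Their median in the pair not used was -0.50, -0.40 and -0.28 for pairs 1, 2 and 3. Of the 606 probe sets at 0.5 or more in pairs 1 and 2, 15.8% were at -0.5 or less in pair 3, which is also above the 11.5% of all. The same share was 0.562% of 534 for pair 1 and 2.93% of 580 for pair 2, both below the shares of all.

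**Figure D2:**
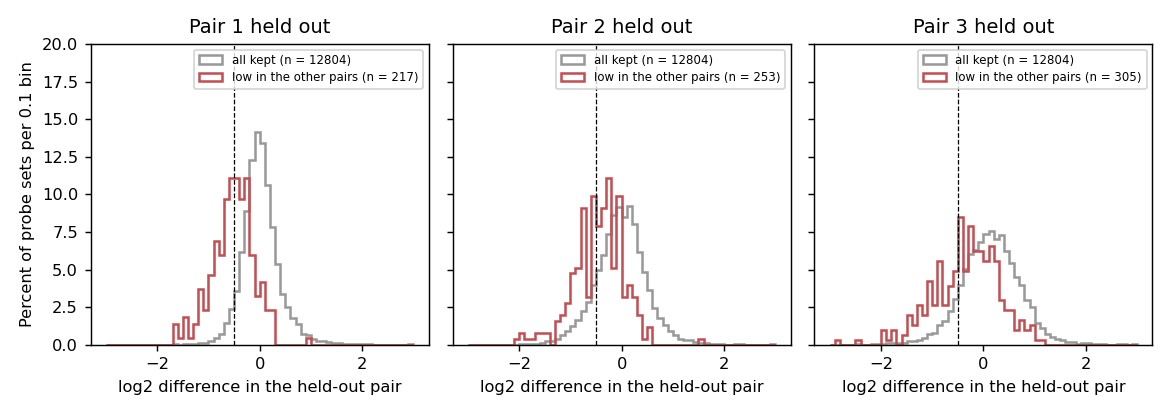
Distribution of the log2 difference, double mutant minus pad4, in the pair left out of the choice, as the percent of probe sets per bin of 0.1, with values beyond 3 drawn in the end bins. Red lines are probe sets at -0.5 or less in the other pairs and grey lines all 12804; the red counts left of the dashed limit are the same 108 probe sets in each panel, so the panels restate the choice.

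The redox genes among the members were 4 glutaredoxins of the plant-specific CC type, small proteins that bind TGA transcription factors. AT4G15680 had 207, 212 and 268 signal units in pad4 replicates 1, 2 and 3, and 62.4, 122 and 140.0 in the double mutant, so the groups did not overlap. Its mean went from 229 ± 33.9 to 108 ± 40.6 (SD, n = 3), a mean log2 difference of -1.07 with pair values of -1.58, -0.75 and -0.89. AT4G15690, the next gene on the chromosome in the reference order, had 207, 248 and 289.9 units in pad4 against 135, 136 and 128 in the double mutant. Its groups were also apart, and its mean difference was -0.84.

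AT3G62930 was dimmer, with 45.7, 67.4 and 64.3 units in pad4 against 25.5, 34.1 and 31.0 in the double mutant, again without overlap. The signal of AT1G06830 was 130.2, 173 and 848 in pad4 against 84.6, 118 and 402 in the double mutant. Replicate 3 was the brightest array of this gene in both genotypes, its groups overlapped, and the mean difference was -0.71.

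The rest of the glutaredoxin family was read because these members had been seen, so it is a description with no test. Of 19 listed CC-type genes 16 have a probe set of their own and 12 were bright enough. Apart from the 4 members, 7 of 8 were lower in the double mutant in all 3 pairs; over all probe sets 14.2% were, and 19.9% were higher in all 3. The median of the 12 mean differences was -0.68, against 0.03 over all probe sets.

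AT4G15700 and AT4G15660, from the same chromosomal cluster, had mean log2 differences of -0.75 and -0.64, and AT1G03020 had -0.80. AT5G18600 was the brightest, at 1876 ± 505 units in pad4 against 1262 ± 331 in the double mutant (SD, n = 3), with overlapping groups. GRX480, the TGA-binding glutaredoxin known from salicylic acid signalling, was the exception: its pair values were 0.22, 0.88 and -1.86. The clustered genes are close relatives, and hybridisation of a transcript to a neighbour's probes was not tested.

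**Figure D3:**
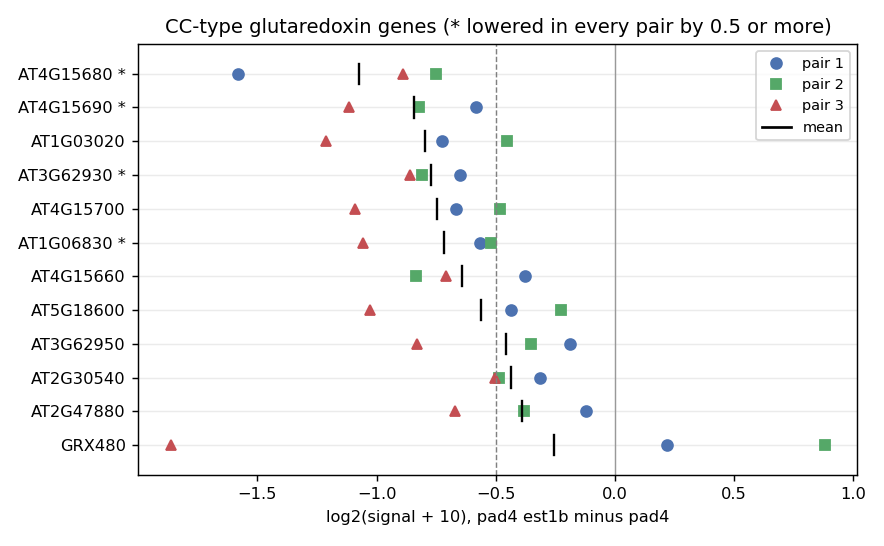
Log2 difference, double mutant minus pad4, in pairs 1, 2 and 3 for the 12 CC-type glutaredoxin genes with a mean signal of at least 20 units; black bars are means and asterisks mark the 4 that met the limit of -0.5 (dashed) in each pair. Of the 12 genes 11 have every point below 0, and GRX480 has points on both sides.

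Of the genes that act on the cell wall, 3 with a family symbol were members. XTH19 encodes a xyloglucan endotransglucosylase/hydrolase, which cuts and rejoins wall xyloglucan. It had 42.7, 43.9 and 14.4 units in pad4 against 12.7, 7.53 and 5.56 in the double mutant. The lowest pad4 array stood only just above the highest double mutant array, and that pad4 array and all 3 double mutant arrays lay under 20 units. The mean difference was -1.16. As it is dim, that value depends on the offset added before the logarithm.

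XTH32, of the same enzyme family, was brighter and more even, with 178, 253 and 253 units in pad4 against 100.3, 137 and 135 in the double mutant. Its pair values were -0.77, -0.84 and -0.86. EXPB1, a beta-expansin, a class of wall-loosening proteins, had 44.4, 42.1 and 54.4 units in pad4 against 20.4, 25.2 and 34.5 in the double mutant. Neither gene had overlapping groups.

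The families around them were mixed. Of 29 XTH and expansin genes with a probe set of their own 15 were bright enough. Of these, 10 were lower in all 3 pairs, the 3 members included, and 1 was higher in all, XTH18, whose mean difference was 0.54. Over all probe sets these shares were 14.2% and 19.9%. The median of the 15 was -0.33. This list, too, was drawn up with the members known. AT4G30460, which encodes a glycine-rich protein, had 23.1, 23.3 and 42.6 units in pad4 against 13.3, 11.3 and 16.9 in the double mutant. It is the neighbour of AT4G30450, one of the 6 probe sets left out.

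A pair of members encode proteins of the pollen Ole e 1 allergen and extensin family. AT5G15780 had 277, 42.4 and 60.4 units in pad4 against 106, 21.5 and 22.6 in the double mutant. Replicate 1 was far brighter than the others in both genotypes, and the groups overlapped. For AT3G26960 the opposite held: replicate 3 was the brightest, with 157, 213 and 571 units in pad4 against 71.7, 141 and 231 in the double mutant. The mean differences were -1.05 and -0.96.

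Genes of nitrogen and sulfur use included a transporter, a regulator and an enzyme. AT3G21670 (NPF6.4) belongs to the NRT1/PTR family of transporters. It had 228, 299 and 289 units in pad4 against 122, 169 and 134 in the double mutant, with a mean of 272 ± 38.6 against 141 ± 24.3 (SD, n = 3). The groups were well apart and the mean difference was -0.90. AT1G25550 encodes a GARP-type transcription factor of the nitrate response, a relative of AT1G68670 among the 6 left out. Its 214, 192 and 462 units in pad4 against 147, 126 and 312 in the double mutant overlapped, but the pair values were nearly equal, at -0.51, -0.57 and -0.55.

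BCAT4, which starts the chain elongation of methionine for aliphatic glucosinolates, was the brightest named member. It had 1553, 1648 and 1846 units in pad4 against 1074, 999 and 1187 in the double mutant. The groups did not overlap, and its mean difference of -0.63 was among the smaller ones.

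Genes of growth and leaf development were also among the members. STOMAGEN (EPFL9) encodes a secreted peptide of the mesophyll that promotes stomatal formation. Its signal was 176, 233 and 337 units in pad4 against 79.5, 118 and 202 in the double mutant. The double mutant was lower in each pair, by -1.05, -0.93 and -0.71, while the groups overlapped. AT3G53250 (SAUR57), of the small auxin-upregulated RNA family, had 48.0, 80.5 and 35.2 units in pad4 against 26.4, 37.5 and 12.4 in the double mutant, with overlap.

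P1R1 (AT5G57780) had 82.3, 142 and 136 units in pad4 against 43.9, 54.4 and 60.8 in the double mutant. The groups were apart, with pair values of -0.78, -1.24 and -1.04. AT5G57785, the next gene, had 38.7, 57.8 and 95.8 units in pad4 against 15.1, 23.9 and 47.4 in the double mutant, with overlapping groups and a mean difference of -0.95. Only 3 neighbouring pairs were found among the named genes and the 6 left out, and the glutaredoxin and glycine-rich pairs are the other two.

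Regulators of protein state were few. UBC29, a ubiquitin-conjugating enzyme, had 311, 354 and 397 units in pad4 against 195, 236 and 223 in the double mutant, without overlap. AT5G55970, a RING-type protein gene, had 95.8, 108 and 97.1 units in pad4 against 63.8, 59.5 and 35.6 in the double mutant. AT3G16800 encodes a type 2C protein phosphatase and was the most even member, with pair values of -0.60, -0.59 and -0.59. Its signal was 178, 143 and 91.1 units in pad4 against 114, 91.3 and 57.0 in the double mutant, so replicate 3 was the dimmest in both genotypes.

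Other members encode enzymes or a relative of a vacuolar protein. AT5G45670, a GDSL-type lipase gene, had 35.1, 37.6 and 27.7 units in pad4 against 15.0, 10.6 and 15.6 in the double mutant. AT1G06640, of the 2-oxoglutarate and iron-dependent oxygenase family, had 499, 397 and 283 in pad4 against 331, 268 and 176 in the double mutant. The groups did not overlap in the first, and they did in the second. AT1G62480, related to a vacuolar calcium-binding protein, had 493, 584 and 416 units in pad4 against 304, 304 and 251 in the double mutant, without overlap.

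Genes given here by locus identifier alone had several of the largest differences among the named genes. AT1G65490 had the lowest mean difference of the named genes, -1.17, with 401, 583 and 899 units in pad4 against 268, 401 and 159 in the double mutant. That value rests on pair 3: the pair values were -0.56, -0.53 and -2.43. AT5G03230 had 168, 175 and 348 units in pad4 against 81.5, 109 and 118 in the double mutant, and AT4G04630 had 117, 104 and 129 against 48.1, 59.6 and 66.0. In both genes the groups did not overlap.

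AT5G12050 had 385, 512 and 526 units in pad4 against 235, 311 and 203 in the double mutant. For AT1G76240 the values were 87.7, 51.4 and 68.6 against 32.0, 26.3 and 32.8. AT2G21185 had 288, 349.8 and 253 against 148, 184 and 133, with pair values that differed by under 0.2. In these 3 genes the groups did not overlap.

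AT1G33055 stayed between 31.6 and 38.6 units in pad4, but had 20.9, 19.5 and 2.79 in the double mutant. In AT1G67860 (422, 814 and 858 against 261, 547 and 326) and AT4G17470 (153, 173 and 370.2 against 65.1, 96.2 and 189) the groups overlapped. So they did in AT5G22460, which was under 20 units in double mutant replicate 3 alone, with 3.03.

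**Figure D4:**
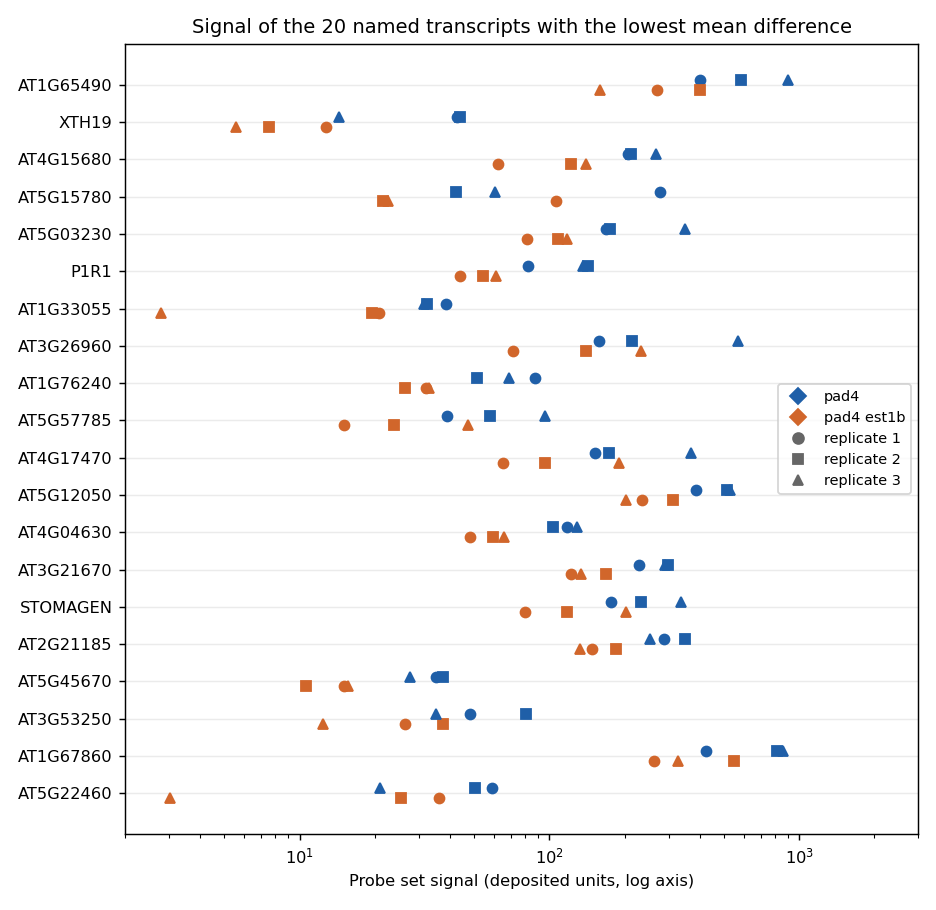
Signal (deposited units, log axis) in each of the 6 arrays for the 20 named genes with the lowest mean difference, pad4 in blue and the double mutant in orange, with circles, squares and triangles for replicates 1, 2 and 3. Each orange symbol lies left of the blue symbol of the same shape, while in genes such as AT5G15780 and STOMAGEN the colours interleave.

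The other named members, most of them picked out after their values had been seen, are given by mean difference. AT4G10910, AT1G54740 and AT1G68440 had mean differences of -0.85, -0.76 and -0.78 and groups that did not overlap, as did AT4G24700 with -0.72 and AT5G67390 with -0.71. AT2G28410 had -0.55 and AT3G18560 -0.76, both without overlap. AT4G02360, AT2G24580 and AT1G12080 were separated too, with -0.74, -0.72 and -0.62. All 3 were dim, with double mutant means of 12.2, 13.1 and 18.2 units.

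Overlap was found in AT4G01390 (-0.83), AT5G24580 (-0.78), AT4G02850 (-0.71), AT5G65860 (-0.62) and AT1G80130 (-0.57). The bright genes AT4G33666, at 835 ± 249 units in pad4 against 538 ± 165 in the double mutant (SD, n = 3), and AT3G45160, at 683 ± 140 and 446 ± 109 (SD, n = 3), overlapped as well. In 31 of the 50 named members the groups did not overlap, where 3.4% of all probe sets had this order. The choice used the same contrast, so this count is no support for it.

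The members without a single gene are known here by probe set only. The lowest mean difference of all, -1.66, was that of 247718_at, with 9.91, 19.7 and 116 units in pad4 against 0.410, 2.59 and 7.86 in the double mutant. Only pad4 replicate 3 exceeded 20 units, so it was kept through that array. Probe set 245275_at had 156, 97.9 and 98.8 units in pad4 against 43.6, 37.2 and 18.2 in the double mutant. Next came 262113_at, with a mean difference of -1.37, and 256266_at, also with -1.37.

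The groups did not overlap in these 4 probe sets. The brightest member was 245928_s_at, with 2236, 2144 and 5217 units in pad4 against 961, 1022 and 1734 in the double mutant. It belongs to 4 members whose probe set type is open to cross-hybridisation. Another of them, 257339_s_at, is shared by AT2G07671 and the mitochondrial gene atp9, which encodes an ATP synthase subunit, and had 199, 290.4 and 649 units in pad4 against 102, 139.9 and 174 in the double mutant.

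The limits of the choice were close to other probe sets. Among probe sets with a single gene, those just inside by their weakest pair were AT1G25550 and AT3G18560 at -0.51 and AT4G30460 at -0.51. Just outside were AT3G19030, GSTU20 and AT4G24780, each at -0.50 after rounding but above the limit. As for brightness, 13 of the 102 had a double mutant mean under 20 units, and none had a pad4 mean under it, so those 13 were kept through pad4. The members' mean signal ran from 20.1 to 2219 units with a median of 108, and the median over all probe sets kept was 90.1.

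The replicate number also went with differences within each genotype. The choice compared no arrays of different numbers, but it bounded the same signals within each pair. The values below are thus not independent of the choice and are a description only. In pad4, 17 of the 102 were higher in replicate 3 than in replicate 1 by 1 or more on the log2 scale, where 9.61% of all probe sets were, and 17 were lower by as much, where 23.5% of all were. In the double mutant 12 were higher (4.95% of all) and 16 lower (14% of all). In both genotypes at once, 8 were higher and 13 lower by this much. The joint shares over all probe sets were not counted, so these counts cannot be set against them. The median difference of the 102 was 0.25 in pad4, where that of all probe sets was -0.26, and 0.05 in the double mutant, where it was -0.07. Since replicates 2 and 3 of pad4 also bear the other stage label, their mean was set against replicate 1: in pad4 the median was 0.25 for the 102 and -0.13 for all, and it was 0.07 and -0.06 among the double mutant arrays, whose stage label is the same throughout. A limma fit with the stage label was run as an alternative, but its only pad4 sample labelled 5.10 is replicate 1. The parts of stage and genotype in pairs 2 and 3 cannot be told apart.

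**Figure D5:**
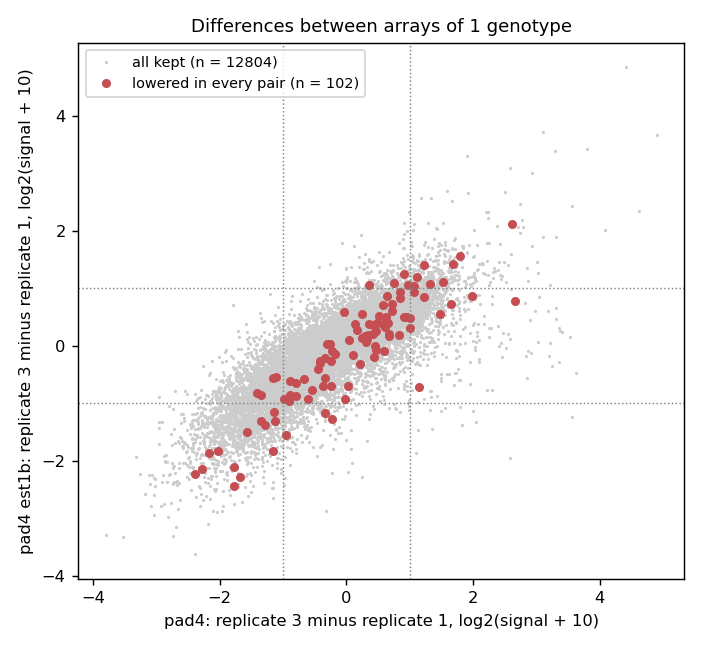
Difference between replicate 3 and replicate 1 on the scale log2(signal + 10), in pad4 (x axis) and in the double mutant (y axis), with all 12804 probe sets in grey and the 102 in red. The red points spread from about -2.4 to above 2 in both genotypes and dotted lines mark differences of 1.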

How the data were processed

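Total RNA of 6 samples was hybridised to ATH1 arrays. The deposited values are probe set intensities on a linear scale. They were made with MAS5 in GCOS, per the submitters' processing notes, whose versions are not stated there. Groups and replicate numbers were taken from sample titles.

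Control probe sets (64 of 22810) were left out, an offset of 10 units was added before log2, and probe sets with a mean under 20 were dropped. Differences on this scale understate those of dim genes. Limma 3.58.1 (lmFit, eBayes, R 4.3.3; two-sided, Benjamini-Hochberg over all 12804 probe sets) gave the calls. On simulated data with planted differences, the mean fitted differences were checked against those planted. How many true differences the calls would miss is not given here. Alternatives were other offsets, brightness filters, scalings and limits, the replicate number or stage label in the fit, and arrays left out in turn. With 3 arrays per group, the number of arrays limits precision. Python 3.11.15 and pandas 2.3.3 were used.

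Genes were named through the array's platform annotation and a TAIR10.1 gene table, used for names and gene order alone. That table lists no gene descriptions, and no sequence was at hand, so planned readings of promoter motifs and protein length were not made. Members, lists and alternatives were chosen with earlier results of these data known. Named are members with a single gene: those on a locus list, the 20 lowest mean differences, the 6 brightest and the 6 most even. Also named are the 3 single-gene probe sets on each side of the limit and the 4 lowest members without a single gene. All other named members, and the families around them, were named after their values were seen. The gene behind the second mutation is not reported here.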

Additional observations from a re-analysis of the deposited data

How the results depend on the processing

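The limits are 3 arrays per group, a numbering whose meaning the labels do not give, and dim members whose differences depend on the offset. The count of 102 became 160 without the offset and 58 with 30 units, 5 at a limit of -1 and 195 at -0.4; the counts of 160 and 195 include all 102. Median centring gave 150, all 102 among them, and quantile normalization 135, with 94 of the 102, so that 8 were lost. With replicates 1, 2 or 3 left out, 211 to 299 probe sets met the limits in the remaining pairs. The median difference of -0.87 became -0.99 without the offset, -0.72 with 30 units, -0.71 among samples labelled 5.10 and -0.76 in pair 1 alone, an alternative chosen after seeing the data; without replicates 1, 2 or 3 it ran from -0.89 to -0.80. The mean of the 3 per-pair shares, 42.6%, which restates the choice, became 32.0% without the filter. The members' median of 0.21 between replicates 3 and 1 became 0.52 with median centring, where that of all probe sets moved from -0.16 to 0.15.

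Limma called 0 probe sets lower in each fit but the one that took the numbers as a replicate block, which called 11 of 12804 lower, 8 of them among the 102; leaving out single arrays gave 0 throughout, for all probe sets and for the members. As a check of the pairing, the 2 arrays sharing a number were compared in how they departed from their groups: r over probe sets was 0.83 for replicate 1, 0.00 for replicate 2 and 0.68 for replicate 3. The main test took the numbers as no pairing, because the labels do not say what a shared number stands for.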

Other observations

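Gene lists set by locus mostly had no named members among the 102. Few of the listed genes have a probe set of their own in the annotation used here, which names a single gene for 53.8% of probe sets kept. The 51 members with no gene listed could not be placed on any list. All 9 readable targets reported for nonsense-mediated decay had a positive mean log2 difference, from 0.53 to 2.75, and 8 were higher in all 3 pairs. The lists were drawn up with earlier results of these data known, so this is a description and no separate support. The 3 nuclear photosynthesis genes read had a median of 0.03, and 66 chloroplast-encoded genes one of -0.06, with 12 lower and 3 higher in all pairs, where 14.2% of all probe sets were lower and 19.9% higher. Salicylic acid defence (2 genes read) had a median of 0.15 and the clock list (2 genes) 1.08, with 0 lower in all pairs in either.

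Other lists set by locus had negative medians. Both readable lipid-transfer genes are among the 6 probe sets left out. Both readable genes of nitrogen and phosphate use met the limits, AT1G25550 and the left-out AT1G68670. Of the 2 aliphatic glucosinolate genes, BCAT4 is a member and the other had a mean difference of 0.13. The single shade and auxin gene kept had -0.64. The 3 listed expansin genes kept had a median of -0.28 and were lower in all pairs. No listed aquaporin or wax gene is named for a probe set of its own in the annotation used, so none could be read. Among NPF transporters, a list made after the members were seen, 7 of 11 were kept, 4 were lower and 1 was higher in all pairs, with a median of -0.38.

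Genes grouped by words in their names, few of which the tables hold, had medians on both sides of 0. Peroxidases (4 kept) had 0.26, the transcription factor kept 0.17, cytochromes P450 (13 kept) 0.15, kinases (5 kept) 0.06 and chlorophyll or photosystem genes (8 kept) 0.0039, with 0 members in any of them. Transporters (7 kept) had -0.05 and 0 members, and glycosyl enzymes (30 kept) had -0.10 and 2 members, with 12 lower and 6 higher in all pairs. The lowest of these enzymes was XTH19 at -1.16, so this group shares genes with the XTH family described above.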
